A study of Mus musculus with 2 samples.

Results

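The hepatic stellate cell genes described here are 10 genes, Lrat, Reln, Colec11, Hgf, Ecm1, Rgs5, Dcn, Igfbp3, Pdgfrb and Des, out of 32285 genes in the count matrices of 2 mouse liver sections. They were taken by symbol as genes known to be expressed by hepatic stellate cells, and were chosen with earlier results of these data known. The sections were profiled by 10x Visium, in which RNA from a frozen section 10 µm thick is captured on printed spots that carry a position barcode, so that 1 spot can hold several cells of different types. The NCD section came from a male C57BL/6J mouse on normal chow, and the HFD section from a male C57BL/6J mouse on a high-fat diet that induces non-alcoholic fatty liver disease (NAFLD). Both mice received distilled water by mouth as the untreated arms of a drug study. There was 1 section of 1 mouse per diet, so that diet, mouse, section and slide cannot be told apart, no p-value was computed, and every interval below is a 95% interval that covers counting error only.

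Hepatic stellate cells lie between the hepatocytes and the endothelium of the sinusoids, where they store vitamin A as retinyl esters and make growth factors and matrix proteins. In an injured liver they lose their vitamin A droplets and become contractile, collagen-producing myofibroblasts, a switch known as activation and the main source of scar tissue in liver fibrosis. Some of the 10 genes mark the resting cell (Lrat, Reln, Colec11, Hgf, Ecm1 and Rgs5, called quiescent genes here), and the other 4 (Des, Dcn, Igfbp3 and Pdgfrb) are made in both states. Several are shared with other cells of the vessel wall and the portal tract, and Ecm1 is also made by hepatocytes.

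The NCD section had 3692 spots over tissue and 29037988 unique molecular identifiers (UMIs, each standing for 1 captured transcript), and the HFD section had 3594 spots and 72118803 UMIs. The median was 4187.5 UMIs per spot in NCD and 18549 in HFD, and 840 NCD spots but 4 HFD spots held fewer than 1000 UMIs. Beyond the tissue edge lay 1300 NCD spots, with 19.1% of that slide's UMIs, and 1398 HFD spots, with 2.93%. Hepatocyte markers (Alb, Apoa1, Ttr, Apoc3, Fgb and Trf) made up 88643 CPM (the UMIs of a gene or list divided by all UMIs over tissue and scaled to 1000000) in NCD and 101394 CPM in HFD, as in whole liver, although the sample labels also carry a blood stem cell line and an immune cell type. Over tissue the slides share 3173 spot barcodes, which are positions of the same printed layout and not shared cells.

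Together the 10 stellate genes gave 12843 UMIs in the NCD section, or 442 CPM, and 43869 UMIs in the HFD section, or 608 CPM. A spot over tissue held a median of 2 of these UMIs in NCD and 10 in HFD. The sum was higher in HFD by 0.46 on the log2 scale (interval 0.43 to 0.49), next to a median of 0.24 over the 11913 genes with at least 100 UMIs. Of the 10 genes, 9 had a log2 ratio above 0, 8 lay above the median of all genes, and the median of the 10 was 0.71. Most of all genes were above 0 as well, since Igfbp3, at a ratio of 0.01, lay at percentile 30.1 of them. Des alone was at least 2-fold higher in HFD and none was 2-fold lower, where 10.8% of all genes were at least 2-fold higher and 2.06% at least 2-fold lower. When every spot had the same weight, as the mean of CPM per spot, the log2 ratio of the sum was 0.013, and without Dcn it was 0.15. More stellate cells and more RNA per cell cannot be told apart in such sums.

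The spots off tissue were used as an estimate of RNA that had spread from the tissue. They held a median of 3383 UMIs on the NCD slide and 1175.5 on the HFD slide. The NCD value is not far below the 4187.5 over tissue. Whether tissue lay under some of these spots was not tested. There the 10 genes stood at 398 CPM on the NCD slide, close to the 442 CPM over tissue, and at 375 CPM on the HFD slide, against 608 CPM over tissue. After subtraction of the off-tissue profile the log2 ratio of the sum was 0.23.

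**Figure D1:**
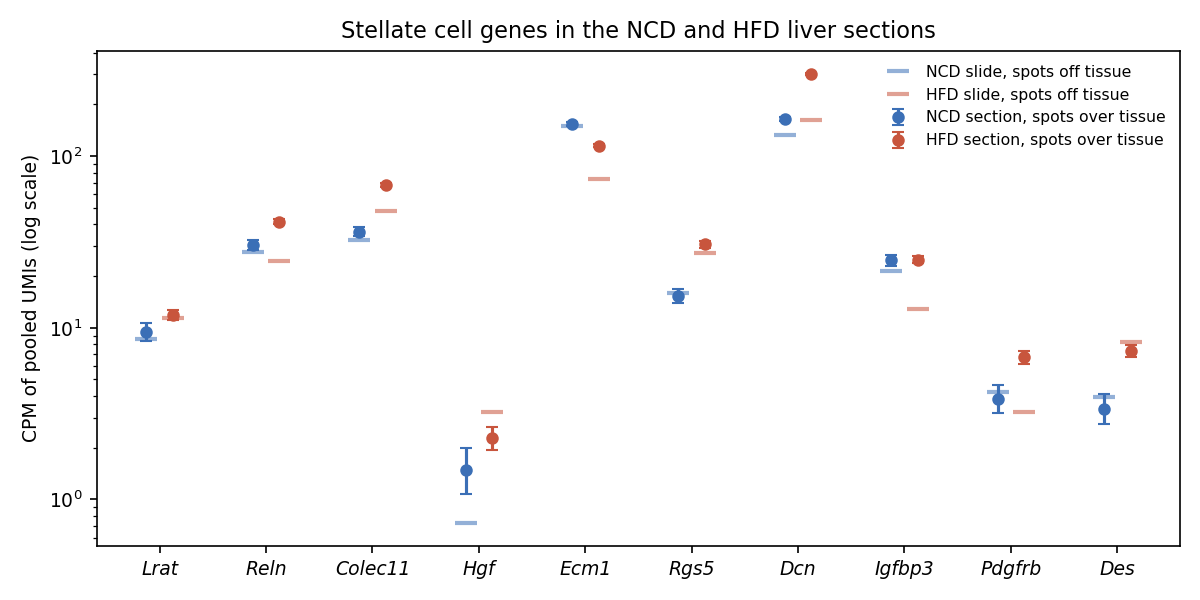
CPM of the 10 stellate genes over tissue (points, with exact 95% Poisson intervals) and in spots off tissue (dashes) for the NCD and HFD slides, on a log axis. Dcn stood at 164 CPM in NCD and 300 CPM in HFD, Ecm1 at 154 and 115 CPM, and in NCD the off-tissue dashes lie near the points for most of the genes.

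Among the quiescent genes, the vitamin A gene was close to the middle of all genes. Lrat (GRCm38 chr3:82892579-82903973, minus strand), which encodes the enzyme that esterifies retinol for storage, had 274 UMIs and 9.44 CPM in NCD and 852 UMIs and 11.8 CPM in HFD. Its log2 ratio was 0.32 (0.13 to 0.53), at percentile 56.6 of all genes. Weighting spots equally turned the ratio to -0.36. After each spot was drawn down to 3000 UMIs, Lrat was seen in 2.80% of NCD spots and 3.45% of HFD spots (6.61% and 19.4% before that).

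Reln (chr5:21884454-22344702, minus strand) encodes reelin, a large secreted glycoprotein that stellate cells make in the liver. It stood at 30.2 CPM in NCD and 41.5 CPM in HFD, a log2 ratio of 0.46 (0.35 to 0.57) at percentile 66.6. Drawn down to 3000 UMIs, 8.78% of NCD spots and 11.9% of HFD spots held it (17.9% and 49.8% before).

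Colec11 (chr12:28594173-28623377, minus strand), which encodes a collectin of the lectin pathway of complement, and Rgs5 (chr1:169655501-169695813, plus strand), a regulator of G protein signalling that marks pericytes, differed more. Colec11 stood at 36.3 CPM in NCD and 68.1 CPM in HFD, a log2 ratio of 0.91 (0.81 to 1.00) at percentile 87.0. Rgs5 stood at 15.4 and 30.6 CPM, a log2 ratio of 0.995 (0.85 to 1.15) at percentile 89.1, just short of 2-fold. At 3000 UMIs the share of spots with Colec11 was 10.5% in NCD and 19.2% in HFD, and with Rgs5 5.32% and 8.65%. The intervals of these shares were 9.26% to 11.9% in NCD and 17.9% to 20.6% in HFD for Colec11. For Rgs5 they were 4.40% to 6.36% and 7.74% to 9.62%. With spots weighted equally, the log2 ratios were 0.32 for Colec11 and 0.45 for Rgs5.

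Hgf (chr5:16553495-16620152, plus strand), the hepatocyte growth factor with which stellate cells act on hepatocytes, was sparse, with 43 UMIs in NCD and 164 in HFD. Its 1.48 and 2.27 CPM gave a log2 ratio of 0.62 with a wide interval of 0.13 to 1.14, and the ratio was -0.22 with spots weighted equally and -0.46 after subtraction of the off-tissue profile. No direction can be read for Hgf at this depth.

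Ecm1 (chr3:95734147-95739569, minus strand), which encodes a secreted matrix protein that keeps latent TGF-β inactive, was the only one of the 10 that was lower in HFD. It stood at 154 CPM in NCD and 115 CPM in HFD, a log2 ratio of -0.42 (-0.47 to -0.36) at percentile 8.28 of all genes. It was lower under every alternative that was run for it, with log2 ratios from -0.90 to -0.36. At 3000 UMIs it was seen in 37.4% of NCD spots (35.4% to 39.6%) and 28.9% of HFD spots (27.4% to 30.4%). Ecm1 gave 34.7% of all UMIs of the 10 genes in NCD and 18.9% in HFD, and without it the log2 ratio of the sum was 0.77.

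Of the genes of both states, Dcn (chr10:97479609-97518143, plus strand) encodes decorin, a small leucine-rich proteoglycan that binds collagen fibrils. It rested on the most UMIs of the 10 genes, 4763 in NCD and 21638 in HFD, which was 37.1% and 49.3% of their sum. Dcn stood at 164 and 300 CPM, a log2 ratio of 0.87 (0.83 to 0.92) at percentile 86.1, and it stayed between 0.44 and 0.90 under the alternatives. Drawn down to 3000 UMIs, 37.3% of NCD spots and 54.8% of HFD spots held it (49.2% and 93.5% before).

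Des (chr1:75360329-75368579, plus strand) encodes desmin, the intermediate filament of muscle and of rodent stellate cells. With 98 UMIs in NCD and 529 in HFD, it stood at 3.37 and 7.34 CPM, a log2 ratio of 1.12 (0.81 to 1.45) at percentile 91.5. Pdgfrb, the receptor through which platelet-derived growth factor makes stellate cells divide, stood at 3.86 CPM in NCD (112 UMIs) and 6.74 CPM in HFD (486 UMIs), a log2 ratio of 0.81 (0.51 to 1.11) that was 0.39 when drawn down to 3000 UMIs. Igfbp3 (chr11:7206086-7213923, minus strand), which encodes a carrier of insulin-like growth factors, stood at 24.7 and 24.9 CPM, a log2 ratio of 0.01 (-0.11 to 0.14) that places it at percentile 30.1 of all genes. The Igfbp3 ratio was -0.66 with spots weighted equally, -0.28 after subtraction of the off-tissue profile and -0.19 when drawn down to 3000 UMIs.

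Promoter sequence is shown for the 3 genes on which the comparisons turn most, Des with the highest ratio, Ecm1 with the lowest, and Colec11, whose lobule position differed between the sections. The RefSeq promoter table (GRCm38.p6) matched 8 of the 10 genes. Each sequence runs 5′ to 3′ on the gene's strand from 180 bases before the start of transcription to 20 bases after its first position, and capitals mark matches to 3 short motifs on either strand. These were TATAAA, which is common in the core promoters of tissue genes, the E-box CAGCTG, which reads alike on both strands, and the GC box GGGCGG, which reads as its reverse complement where it lies on the other strand.
Des, chr1:75360112-75360311, plus strand: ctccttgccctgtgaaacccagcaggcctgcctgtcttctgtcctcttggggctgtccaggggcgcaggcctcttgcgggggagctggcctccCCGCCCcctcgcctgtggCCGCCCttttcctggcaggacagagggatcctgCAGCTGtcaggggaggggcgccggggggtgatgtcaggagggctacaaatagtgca
Ecm1, chr3:95739550-95739749, minus strand: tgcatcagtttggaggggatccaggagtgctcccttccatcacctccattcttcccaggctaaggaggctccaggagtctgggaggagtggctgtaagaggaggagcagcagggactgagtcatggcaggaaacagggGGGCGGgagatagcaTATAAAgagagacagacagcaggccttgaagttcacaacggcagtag
Colec11, chr12:28623311-28623510, minus strand: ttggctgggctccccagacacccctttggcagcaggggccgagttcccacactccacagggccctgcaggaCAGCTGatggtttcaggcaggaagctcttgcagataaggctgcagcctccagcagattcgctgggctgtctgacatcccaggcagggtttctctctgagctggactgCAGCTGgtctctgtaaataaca
Ecm1 was the only one of the 8 with TATAAA in this window, which 9.46% of all 32851 RefSeq promoters hold, and the match begins at position -27 from the start. CAGCTG was found in Des (1 match, at -36) and Colec11 (2 matches, the more distant at -109), and in 11.2% of all promoters. GGGCGG was in Reln (5 matches), Des (2), Lrat (2) and Ecm1 (1), and in 31.8% of all promoters. The CArG box of smooth muscle genes was in none of the 8 and in 1.15% of all promoters. These matches describe the letters only.

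The question of activation was addressed by setting 16 genes of activated stellate cells beside the quiescent ones. The activated genes summed to 135 CPM in NCD and 416 CPM in HFD, a log2 ratio of 1.62 (1.58 to 1.67), and the 6 quiescent genes to 246 and 269 CPM, a log2 ratio of 0.13 (0.09 to 0.17). All 16 activated genes were higher in HFD, with a median of 1.64, and 13 of 16 were at least 2-fold higher, where 10.8% of all genes were. The lists were chosen with earlier results of these data known, so these counts are a description. The limit of 100 UMIs applied to both sections together, and some of the 16 passed it mainly through HFD. Lox had 16 UMIs in NCD and 105 in HFD, Timp1 18 and 543, and Col5a2 47 and 649. None of the 6 quiescent genes was 2-fold higher or lower, but 5 of the 6 were higher in HFD, with a median of 0.54. Ecm1, the one that was lower, gave the most UMIs of their sum. A further 10 genes of quiescent stellate cells, of which 9 had at least 100 UMIs, summed to 284 CPM in NCD and 221 CPM in HFD, a log2 ratio of -0.36 (-0.40 to -0.32) with a median of -0.19, and only 2 of the 9 were higher in HFD.

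Among the activated genes the highest ratios were those of Timp1, the inhibitor of matrix metalloproteinases, at 0.62 CPM in NCD and 7.53 CPM in HFD (log2 3.60, 2.93 to 4.37), and of the fibrillar collagen genes Col3a1, at 14.1 and 93.8 CPM (2.73, 2.59 to 2.88), and Col5a2, at 1.62 and 9.0 CPM (2.48, 2.05 to 2.93). Tgfb1, the main profibrotic cytokine, had the lowest, at 8.33 and 11.3 CPM (0.44, 0.23 to 0.65), followed by Ccn2, a matricellular target of that cytokine (0.70, 0.55 to 0.85), and Lum, the proteoglycan lumican (0.99, 0.83 to 1.15). All 16 were therefore higher, by amounts from less than 1.5-fold for Tgfb1 to more than 10-fold for Timp1. Chosen after their values were seen, Acta2, the smooth muscle actin of myofibroblasts, stood at 9.06 and 28.7 CPM (1.66, 1.48 to 1.85) and Col1a1 at 5.68 and 29.2 CPM (2.36, 2.13 to 2.60).

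Of the further quiescent genes, Cygb, a globin of stellate cells, had the highest ratio (9.23 CPM in NCD, 15.3 CPM in HFD, log2 0.73, 0.54 to 0.93), then Vipr1, a receptor of vasoactive intestinal peptide (0.22, 0.06 to 0.39). The lowest were Lhx2, a transcription factor that restrains activation (4.17 and 2.83 CPM, -0.56, -0.89 to -0.22), Cxcl12, the chemokine of stromal cells (205 and 143 CPM, -0.52, -0.56 to -0.47), and Bambi, a decoy receptor that dampens TGF-β signalling (5.89 and 4.17 CPM, -0.50, -0.77 to -0.22). Cxcl12 gave most of the UMIs of this list and is also made by endothelial cells.

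The ratio of activated to quiescent CPM was 0.549 in NCD and 1.55 in HFD, a difference of 1.495 on the log2 scale (1.43 to 1.56). With the further quiescent genes in the place of the members the difference was 1.99 (1.92 to 2.05), and for the 3 collagen genes Col1a1, Col1a2 and Col3a1 over Lrat, Reln and Colec11 it was 1.74 (1.62 to 1.86). Leaving out the gene with the most UMIs of each list, Col3a1 and Ecm1, brought it to 0.68, the lowest of the alternatives. Genes of other mesenchymal cells were also higher in HFD. Portal fibroblast markers (9 genes) stood at 18.6 CPM in NCD and 50.3 CPM in HFD, with 6 of 7 measured genes at least 2-fold higher, and smooth muscle markers (8 genes) at 26.1 and 66.0 CPM, also with 6 of 7. Bile duct markers stood at 6.58 and 14.1 CPM with 3 of 4 at least 2-fold higher, while the sinusoidal endothelium stood at 286 and 375 CPM with 0 of 8. Of the activated genes, Acta2 and Tagln are also made by smooth muscle. Of the capsule markers only Krt19, which bile ducts share, reached 100 UMIs. The part of these cells in the activated genes was not tested.

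**Figure D2:**
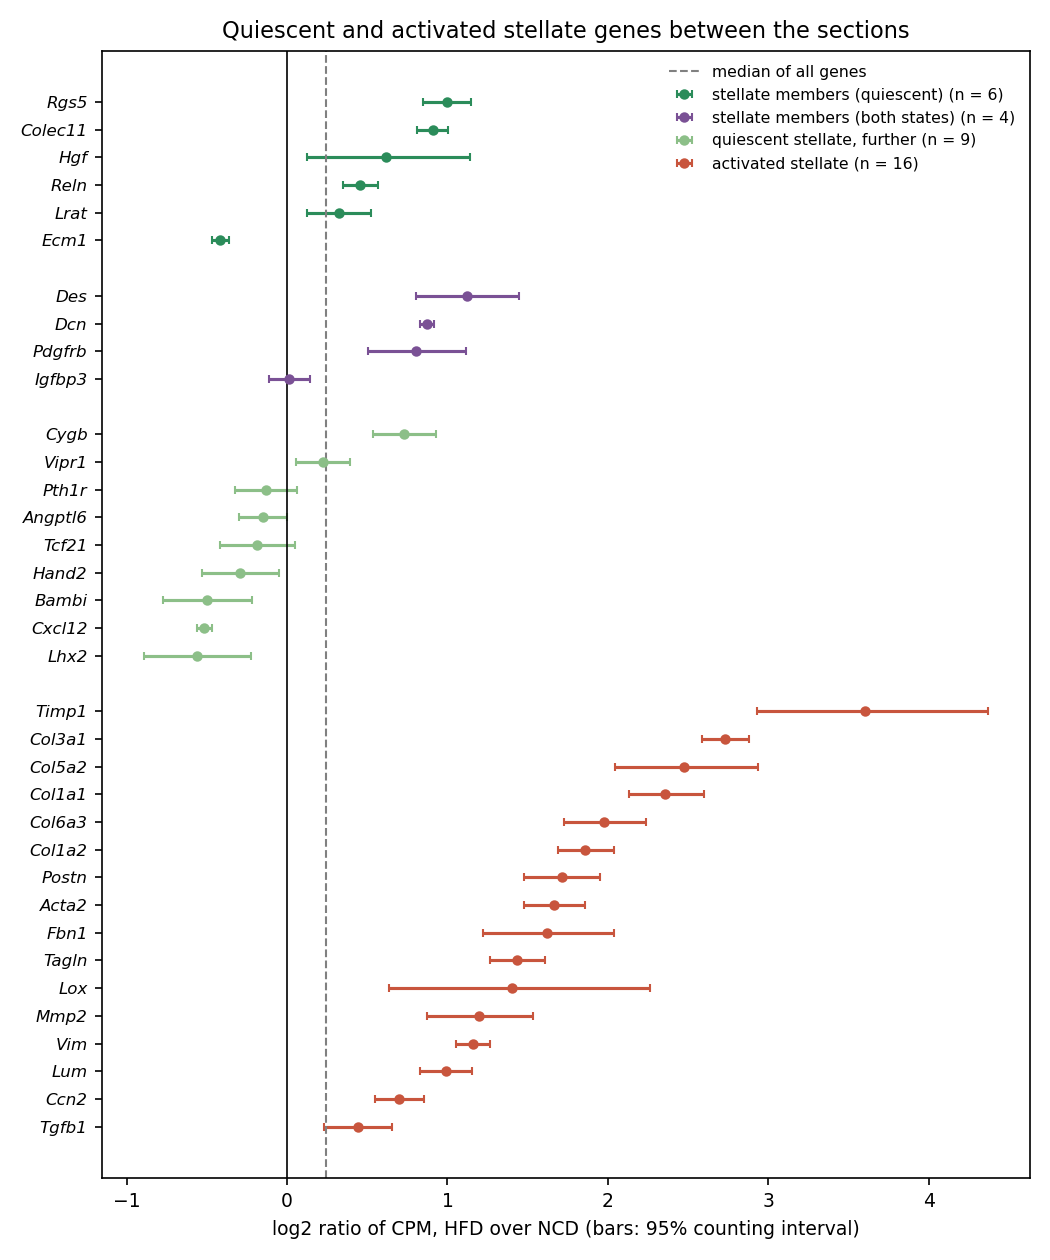
Log2 ratio of CPM in HFD over NCD for the 10 stellate genes, split into quiescent genes (n = 6) and genes of both states (n = 4), and for further quiescent genes (n = 9) and activated genes (n = 16), with 95% counting intervals and a dashed line at the median of all genes (0.24). All 16 activated genes lie to the right of 0, whereas the further quiescent genes lie on both sides and Ecm1 lies to the left.

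The partners of the 10 genes, 24 ligands, receptors, carriers and enzymes of which 21 had at least 100 UMIs, did not share a direction. Of these, 13 were above 0 with a median of 0.25, as for all genes (0.24), 3 were at least 2-fold higher and 1 at least 2-fold lower, near the 10.8% and 2.06% of all genes. Pdgfa, a ligand of the platelet-derived growth factor family, stood at 3.62 CPM in NCD and 9.68 CPM in HFD (log2 1.42, 1.12 to 1.73), Ltbp1, which holds latent TGF-β in the matrix, at 1.45 and 3.34 CPM (1.21, 0.73 to 1.72), and Vldlr, a reelin receptor and lipoprotein receptor, at 2.10 and 4.69 CPM (1.16, 0.76 to 1.58). At the other end, Cyp26a1, the enzyme that clears retinoic acid, stood at 8.78 CPM in NCD and 1.58 CPM in HFD (-2.47, -2.81 to -2.15). The acid-labile subunit gene Igfals, whose product joins Igfbp3 in the circulating complex, stood at 92.8 and 54.8 CPM (-0.76, -0.83 to -0.69), and its cargo Igf1 at 617 and 423 CPM (-0.55, -0.57 to -0.52).

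The position of the genes within the lobule, between the portal tract and the central vein, was read by ranking the spots with at least 1000 UMIs of each section on 8 pericentral and 8 periportal hepatocyte genes and dividing them into 3 zones of equal size, periportal, middle and pericentral. There were 951, 951 and 950 spots in NCD, and 1197, 1197 and 1196 in HFD. Summed, the 10 genes stood at 388, 438 and 470 CPM from the periportal to the pericentral zone in NCD, and at 529, 625 and 702 CPM in HFD. The log2 ratio of the pericentral to the periportal zone was 0.28 (0.21 to 0.34) in NCD and 0.41 (0.38 to 0.44) in HFD, where the medians of all genes were 0.12 and 0.08. Without Dcn these ratios were 0.062 and 0.30. Median depth differed between the zones, 4592, 7805 and 7783 UMIs per spot in NCD, and 24333, 14497 and 17310.5 in HFD.

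Past 1.5-fold, 2 of the 7 members with at least 100 UMIs in the outer zones of NCD were higher in the pericentral zone (Reln and Dcn) and 1 was lower (Igfbp3), where 7.21% of all genes were higher and 2.76% lower. In HFD all 10 had enough UMIs, and 1 was higher (Lrat) and 1 lower (Des), where 4.78% of all genes were higher and 4.24% lower.

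Reln, Dcn and Ecm1 were higher in the pericentral than in the periportal zone in both sections, and Lrat in HFD. Reln stood at 22.7, 26.9 and 38.2 CPM from the periportal to the pericentral zone in NCD (log2 0.75, 0.48 to 1.02) and at 35.4, 42.5 and 49.0 CPM in HFD (0.47, 0.35 to 0.60). Dcn stood at 124, 160 and 194 CPM in NCD (0.65, 0.54 to 0.76) and at 253, 302 and 363 CPM in HFD (0.52, 0.47 to 0.57). Both were thus higher in each zone nearer the central vein, in each section. Ecm1 had the same order in HFD, at 96.2, 124 and 132 CPM (0.46, 0.38 to 0.53), and in NCD stood at 135, 159 and 154 CPM (0.19, 0.07 to 0.30). Lrat was at 8.89, 13.8 and 14.0 CPM in HFD (0.66, 0.41 to 0.90), while its 8.34, 9.25 and 9.62 CPM in NCD could not be told apart (0.21, -0.27 to 0.69).

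Rgs5 and Colec11 did not keep their order between the sections. Rgs5 was flat in NCD, at 15.1, 15.7 and 14.7 CPM (-0.03, -0.40 to 0.33), and stood at 24.9, 32.5 and 36.8 CPM in HFD (0.57, 0.42 to 0.71). Colec11 was lower towards the central vein in NCD, at 40.4, 36.3 and 31.7 CPM (-0.35, -0.58 to -0.12), and slightly higher in HFD, at 64.4, 70.6 and 70.9 CPM (0.14, 0.04 to 0.24). The HFD to NCD ratio of each was therefore highest in the pericentral zone, 1.32 (1.07 to 1.58) on the log2 scale for Rgs5 against 0.72 (0.43 to 1.02) in the periportal zone, and 1.16 (0.99 to 1.33) against 0.67 (0.50 to 0.85) for Colec11. With 1 section per diet this difference was not tested.

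Des in HFD and Igfbp3 in NCD were higher in the periportal zone. Des stood at 10.2, 6.58 and 4.16 CPM from the periportal to the pericentral zone in HFD (log2 -1.29, -1.64 to -0.94), and at 4.44, 3.14 and 2.69 CPM in NCD (-0.72, -1.50 to 0.05), where its 33, 34 and 28 UMIs did not resolve the order. Without the spots rich in smooth muscle transcripts, described next, the Des ratio was -0.52 in HFD and 0.02 in NCD. Igfbp3 stood at 32.7, 21.3 and 20.8 CPM in NCD (-0.65, -0.93 to -0.38) and at 26.4, 23.2 and 24.6 CPM in HFD (-0.10, -0.26 to 0.06). Igfbp3 was lower in HFD in the periportal zone (-0.31, -0.52 to -0.10) and higher in the pericentral zone (0.24, 0.01 to 0.48). Pdgfrb (-0.36 in NCD, -0.31 in HFD) and Hgf (-0.36 and -0.31) had intervals that included 0 in both sections.

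**Figure D3:**
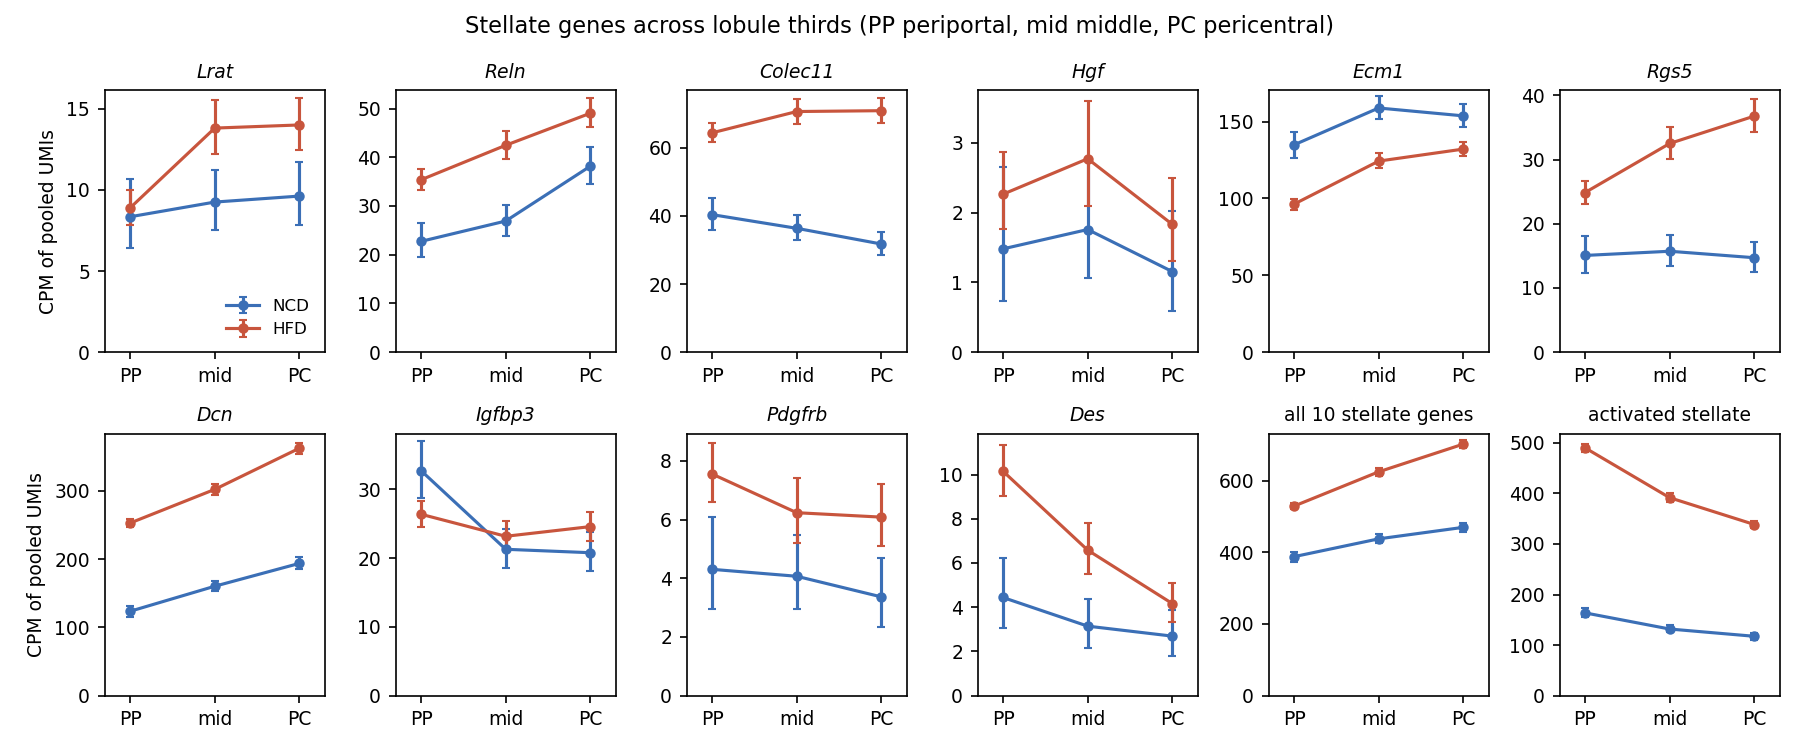
CPM of each stellate gene, of their sum and of the 16 activated genes in the periportal, middle and pericentral zones of the spots of each section, with exact 95% Poisson intervals and each panel on its own axis from 0. Reln and Dcn are higher from left to right in both sections, and Rgs5 and Colec11 have different slopes in NCD and HFD. The sum of the activated genes in both sections and Des in HFD are lower from left to right.

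As a sum, the activated genes lay the other way from the sum of the 10. They stood at 164, 132 and 117 CPM from the periportal to the pericentral zone in NCD (log2 -0.48, -0.60 to -0.36) and at 490, 391 and 338 CPM in HFD (-0.53, -0.58 to -0.49). In NCD 1 of 10 measured genes was at least 1.5-fold higher in the pericentral zone, Lum (0.61, 0.21 to 1.02). In NCD 3 were lower, Acta2 (104 UMIs in the periportal and 14 in the pericentral zone), Tagln (-3.18, 155 and 24 UMIs) and Vim (-0.72, 303 and 258 UMIs). The order of the NCD sum rested mainly on these 3 and was not shared by all. Other genes of the list had intervals that included 0, such as Col1a1 (-0.46, -1.02 to 0.10), Col1a2 (0.43, -0.02 to 0.90) and Postn (0.16, -0.44 to 0.78). In HFD 0 of 15 were at least 1.5-fold higher and 7 lower. Postn in HFD fell just short of that limit, at 15.2 CPM in the periportal and 22.8 CPM in the pericentral zone (0.58, 0.40 to 0.77). Of all genes, 7.21% were higher and 2.76% lower in NCD, and 4.78% and 4.24% in HFD. Acta2 had a ratio of -3.38 in NCD and -2.21 in HFD, Col3a1 0.22 (-0.15 to 0.59) and -0.19 (-0.28 to -0.11). Portal fibroblast markers (-1.01 and -1.09) and bile duct markers (-2.73 and -2.22) were periportal as well. Smooth muscle markers (-0.56 and -0.50) were lower in the pericentral zone too. In NCD they stood at 28.9, 30.7 and 19.6 CPM from the periportal to the pericentral zone. The part of these cells in the position of the activated genes was not tested. The HFD to NCD ratio of the summed activated genes was alike along the lobule, 1.58, 1.57 and 1.53 from the periportal to the pericentral zone. Single genes of the list differed in both directions. Ccn2 had 0.84 (0.58 to 1.10) in the periportal and 0.05 (-0.22 to 0.33) in the pericentral zone. For Lum these were 1.499 (1.16 to 1.85) and 0.47 (0.22 to 0.74). Acta2 went the other way, with 1.71 (1.42 to 2.01) and 2.87 (2.09 to 3.76), as did Tagln, with 1.04 and 2.72. The ratio of the summed quiescent members was 0.06, 0.20 and 0.29 from the periportal to the pericentral zone. Ecm1 gave the most UMIs of the quiescent sum, and its own ratios were -0.49, -0.35 and -0.22.

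The 4 genes listed for stellate cells around the central vein did not share a position. Rspo3, a Wnt enhancer of central vein stellate and endothelial cells, had a log2 ratio of 2.69 (2.02 to 3.43) in NCD and 2.28 (1.92 to 2.65) in HFD. Adamtsl2, a matrix protein listed with it, did not follow, at -0.56 (-1.09 to -0.02) and -1.14 (-1.33 to -0.96). Spon2, a secreted matrix protein, had -0.16 (-0.57 to 0.26) in NCD and 0.80 (0.62 to 0.98) in HFD, and Podn, a small leucine-rich proteoglycan, 0.14 (-0.61 to 0.91) and -0.82 (-1.33 to -0.33). Summed, the 4 genes had a ratio of 0.50 (0.25 to 0.75) in NCD and 0.07 (-0.03 to 0.18) in HFD. Over the whole sections they stood at 29.5 CPM in NCD and 53.3 CPM in HFD, and the list of 3 portal vein genes (Ngfr, Il34 and Itgb3) at 4.48 and 7.35 CPM.

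Which of the 10 genes lay with smooth muscle transcripts was described from the 5% of spots richest in transcripts of 8 smooth muscle genes, none of them among the 10, with 143 spots in NCD and 180 in HFD. Whether these spots held vessel walls was not tested. They rested on 371 smooth muscle UMIs in NCD and 1768 in HFD. Their median depth was below that of the other spots, 5396 against 6870 UMIs in NCD and 12230 against 18936 in HFD. From the periportal to the pericentral zone there were 51, 53 and 39 of them in NCD, and 77, 66 and 37 in HFD. These spots held 3.65% of the UMIs of the analysed NCD spots and 3.57% in HFD. Des stood at 22.9 CPM there and 2.57 CPM in the other spots of NCD (log2 3.16, 2.42 to 3.84), and at 77.3 and 4.75 CPM in HFD (4.03, 3.77 to 4.28), so that these few spots carried 25.3% and 37.6% of its UMIs. With 10% of spots in place of 5%, the Des ratio was 2.41 in NCD and 3.20 in HFD, and that of Igfbp3 1.54 and 0.89. With spots chosen by bile duct genes in place of smooth muscle genes, the Des ratio was 1.21 in NCD and 1.13 in HFD. Pdgfrb followed, at 19.1 and 3.30 CPM in NCD (2.54, 1.76 to 3.25) and 20.6 and 6.23 CPM in HFD (1.73, 1.29 to 2.14). Igfbp3 came next, at 97.5 and 21.3 CPM in NCD (2.20, 1.88 to 2.50) and 54.0 and 23.8 CPM in HFD (1.18, 0.92 to 1.43).

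The quiescent genes differed less between these spots and the others. Their sum had a ratio of 0.11 (-0.07 to 0.29) in NCD and 0.26 (0.16 to 0.36) in HFD. Lrat was lower in the smooth-muscle-rich spots of HFD, at 6.61 CPM against 12 CPM (-0.86, -1.65 to -0.17), and not resolved in NCD (0.34, -0.63 to 1.17). Colec11 was a little higher there in HFD (0.28, 0.07 to 0.48), with 0.44 (-0.001 to 0.85) in NCD. Reln, Rgs5 and Hgf had intervals that included 0 in both sections. Ecm1 was a little higher there in HFD (0.44, 0.29 to 0.58) and not resolved in NCD (-0.07, -0.32 to 0.16). Dcn lay between the groups, at 0.55 (0.36 to 0.74) in NCD and 0.60 (0.52 to 0.69) in HFD. The activated genes (2.85 and 2.40) and the portal fibroblast markers (3.26 and 3.17) were also high there, as Des and Pdgfrb were, and the sinusoidal endothelium was not (-0.02 and -0.40). The activated list holds Acta2 and Tagln, which smooth muscle also makes, so part of its ratio follows from the choice of spots. No value without these genes is given here, so the ratio does not place activated stellate cells. Leaving these spots out, the difference in the activated to quiescent ratio between the sections was 1.59, against 1.495 with them.

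**Figure D4:**
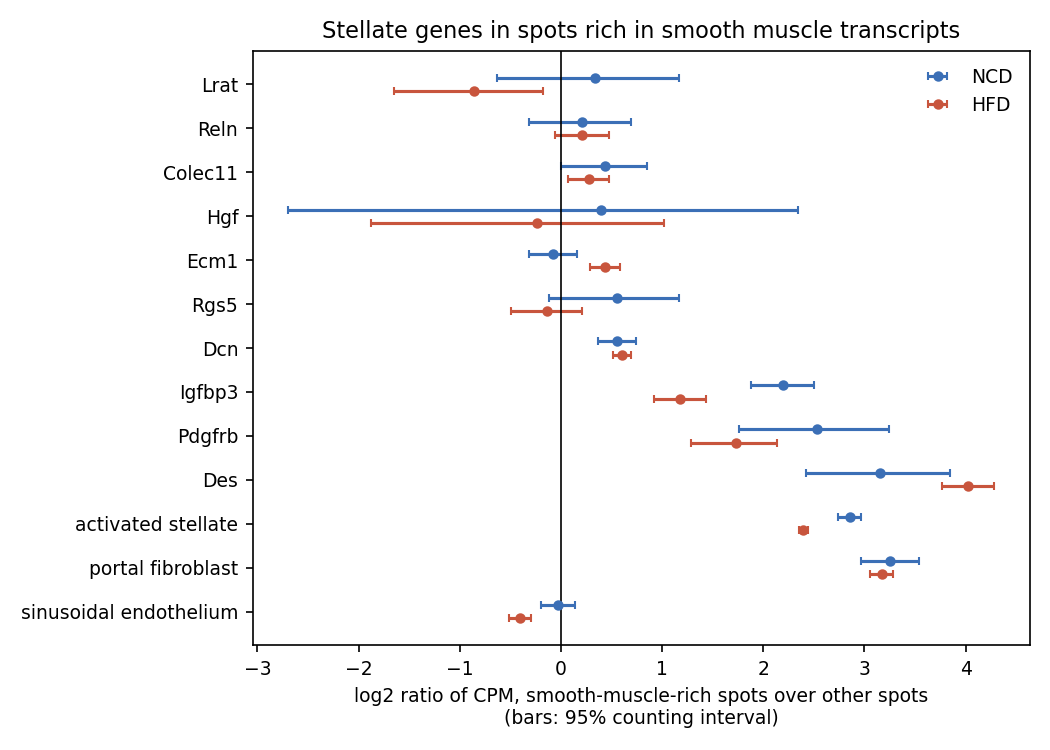
Log2 ratio of CPM in the 5% of spots richest in smooth muscle transcripts over the other spots, for each stellate gene and 3 gene lists in NCD and HFD, with 95% counting intervals. Des, Pdgfrb and Igfbp3 lie far to the right with the activated and portal fibroblast genes, whereas Reln, Rgs5 and Hgf straddle 0.

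Single spots carried few of these UMIs, and the genes were seen together only weakly. The part of the low counts in this was not tested. Over spots with at least 3000 UMIs (2107 in NCD, 3538 in HFD), the 45 pairs of members had Pearson correlations of -0.037 to 0.256 in NCD, with a median of 0.041, and of -0.036 to 0.284 in HFD, with a median of 0.066. Dcn and Ecm1 were the highest pair in both sections. These spots share a library and differ in depth, so the values are a description. After each of these spots was drawn down to 3000 UMIs, Dcn stood at 211 CPM in NCD spots that held any of the other 9 genes and 130 CPM in those that held none (log2 0.70, 0.52 to 0.89), and at 331 and 266 CPM in HFD (0.32, 0.22 to 0.42). Ecm1 (0.54 and 0.38) and Igfbp3 (0.59 and 0.50) were also higher in such spots in both sections, but Igfbp3 had a ratio of -0.15 in HFD spots drawn down to 1000 UMIs. Reln (0.86, 0.37 to 1.39) and Colec11 (0.81, 0.37 to 1.28) were higher in them in NCD, whereas in HFD their intervals included 0. With Dcn and Ecm1 left out of the other genes, the NCD ratios were -0.07 (-0.56 to 0.40) for Reln and 0.16 (-0.27 to 0.58) for Colec11, and those of Igfbp3 were 0.08 (-0.42 to 0.56) in NCD and 0.24 (-0.12 to 0.60) in HFD, so that none of these was resolved.

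Among 6415 other genes with at least 1000 UMIs, the 8 whose pattern over these spots was most like the mean of the 10 were Bgn, Igfbp7, Tmsb10, Prelp, Cd74, Gsn, Col3a1 and Gpx3. The correlation was 0.243 in NCD and 0.274 in HFD for Bgn, the proteoglycan biglycan, and 0.237 and 0.368 for Igfbp7, a secreted protein that shares a domain with Igfbp3. For Gpx3, the last of the 8, it was 0.173 and 0.199. All are weak correlations between sparse counts of spots of 1 library each.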

How the data were processed

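The study placed 1 liver section of 1 mouse per diet on Visium slides. The authors ran Space Ranger (mm10) and deposited UMI counts per gene and spot, raw counts with no normalization, as a matrix of spots over tissue and one of all spots. The symbols of the 10 members were matched in both filtered matrices. UMIs were summed over spots and divided by all UMIs (CPM), with exact Poisson intervals, and ratios have exact conditional binomial intervals (95%, counting error only). Totals were 29037988 UMIs in NCD and 72118803 in HFD. With 1 section per diet no test was run, and genes with at least 100 UMIs were called by fold (2 between sections, 1.5 between outer zones). Lobule zones divide spots into 3 equal sets by rank on log2((pericentral UMIs + 1)/(periportal UMIs + 1)). Draws to 3000 UMIs used seed 1, left 1585 NCD and 56 HFD shallower spots out, and shares have exact Clopper-Pearson intervals. All members are named. Of other lists the 3 highest and 3 lowest ratios may be named, with the 8 genes most alike. Gene coordinates were read from GENCODE M21 (GRCm38). Members and lists were chosen with earlier results of these data known. Alternatives changed the spots, their weighting, the total, the off-tissue subtraction and the genes. Scripts were tested on simulated data, in Python 3.11.15 with numpy 2.4.6, scipy 1.17.1 and pandas 2.3.3.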

Additional observations from a re-analysis of the deposited data

Results flagged for a closer look

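Colec11 was the only stellate gene whose ratio of the pericentral to the periportal zone had an interval on opposite sides of 0 in the NCD and HFD sections. The log2 ratio was -0.35 in NCD and 0.14 in HFD, and the difference was not tested, since there was 1 section per diet. The NCD ratio lay between -0.74 and -0.29 under the alternatives and the HFD ratio between 0.11 and 0.24.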

How the results depend on the processing

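The log2 ratio of the 10 summed genes between HFD and NCD, 0.46, was 0.51 with spots of at least 3000 UMIs, 0.013 as the mean of CPM per spot, 0.37 drawn down to 3000 UMIs, 0.23 after off-tissue subtraction, 0.22 when centred on the median of all genes, 0.15 without Dcn, and 0.77 without Ecm1, a setting chosen after seeing the data. The count of genes at least 2-fold higher, 1, was 2 with spots of at least 1000 or of at least 3000 UMIs or with the total without mitochondrial and the 20 most abundant genes, 3 after off-tissue subtraction, 4 without the 1% of spots with the most UMIs of each gene, and 0 when drawn down, when centred, or over genes with at least 1000 UMIs. The activated to quiescent difference, 1.495, was 1.75 as mean CPM per spot, 2.17 after subtraction, 1.60 without the 1% of spots, 1.59 without smooth-muscle-rich spots, 0.68 without Col3a1 and Ecm1, and 1.99 with the further quiescent genes, also chosen after seeing the data. The lobule ratio of the sum was 0.37, 0.19, 0.17 and 0.062 in NCD and 0.57, 0.37, 0.335 and 0.30 in HFD with narrower outer zones, drawn down, as mean CPM per spot and without Dcn, and 0.48 in HFD without smooth-muscle-rich spots. Among ratios whose interval excluded 0, sign changes were those of Lrat (-0.36) and Hgf (-0.22) between sections as mean CPM per spot, Hgf after subtraction (-0.46), Ecm1 in HFD with bile duct genes in place of smooth muscle genes (-0.22), and Igfbp3 in HFD spots drawn down to 1000 UMIs (-0.15). Ratios whose interval included 0 changed sign as well, among them Igfbp3 between the sections, from 0.01 to -0.66 as mean CPM per spot, -0.28 after subtraction, -0.23 when centred and -0.19 when drawn down. Over genes with at least 20 UMIs, 13.5% were at least 2-fold higher and 3.26% lower, and over those with at least 1000 UMIs 6.79% and 1.67%. Between 9 and 14 of the activated genes were at least 2-fold higher in HFD in any setting. Of the 16, only 14 had a value after off-tissue subtraction and without the 1% of spots. In these settings 11 and 12 were at least 2-fold higher, and after subtraction 13 of the 14 were higher at all. The causes were not tested. No paired analysis was possible because there was 1 section per diet. NCD depth limits Hgf, Des and Pdgfrb, with 43, 98 and 112 UMIs. It also limits activated genes such as Lox, Timp1 and Col5a2, with 16, 18 and 47 UMIs in NCD.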
